A study of Mus musculus with 6 samples.

Results

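Striated muscle builds its contractile lattice and its energy supply from genes that few other cells use, and 43 of them are described here. They encode proteins of the sarcomere, of the calcium release and uptake that switch contraction on and off, and of the enzymes that supply ATP to it. The genes were taken by name from the 23494 genes of the deposited expression table, and all 43 had a row. Many come in families of myosin, troponin and light chain genes whose members differ in use between fast skeletal fibres, slow skeletal fibres and heart muscle. Slow fibres and heart share some of them, among them Myl2 and Tnnc1. Not every family member therefore tells which kind of muscle left its RNA in a sample.

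Expression was measured by RNA sequencing in 6 libraries from wild-type female C57BL/6 mice, 3 labelled rMANF (recombinant MANF, a secreted endoplasmic reticulum protein) and 3 labelled vehicle (phosphate-buffered saline). Mice of both groups carried B16F10 melanoma, a transplantable mouse tumour line grown under the skin of the flank, and received 2 µg/kg rMANF or vehicle into the peritoneum every day once tumours averaged about 60 mm3, with 8 mice assigned to each group. The labels do not say which 3 mice of each group were sequenced, nor their age. The table's column names for the vehicle libraries begin with IgG, which the treatment label does not mention. The labels give heart as the tissue of all 6 libraries and call the samples biological replicates.

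Values are TPM, a length-corrected share of each library's transcripts, so levels can be compared between genes but sequencing depth is unknown and no counting interval can be given. Several defining markers of heart muscle were at or near 0 in libraries whose label says heart. Of 20 cardiomyocyte markers 16 had rows. The natriuretic peptide gene Nppb measured 46.6 to 54.1 TPM with rMANF and 47.0 to 57.4 TPM with vehicle, and the 12 other markers outside the 43 genes summed to 8.07 to 11.3 TPM with rMANF and 6.64 to 15.5 TPM with vehicle. The atrial peptide gene Nppa was listed at 0 in rMANF replicates 1 and 2 and vehicle replicate 2 and reached at most 0.541 TPM. The atrial light chain gene Myl7 was listed at 0 in 4 libraries, as was phospholamban (Pln), the brake on the cardiac calcium pump, which reached at most 0.0432 TPM. The cardiac myosin gene Myh6 and the release channel gene Ryr2 were not analysed here. The libraries are therefore named by their treatment labels alone.

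The muscle genes were unevenly spread over the libraries. Their summed expression was 282, 275 and 253 TPM in rMANF replicates 1, 2 and 3 and 405, 2053 and 314 TPM in vehicle replicates 1, 2 and 3. Vehicle replicate 2 held the highest value of 41 of the 43 genes, and the other vehicle libraries lay much closer to the rMANF libraries than to it. Even there the genes made up 0.205% of all transcripts, against 0.0253% to 0.0282% in the rMANF libraries. In bulk samples such as these, fewer muscle cells and less RNA per muscle cell cannot be told apart.

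**Figure D1:**
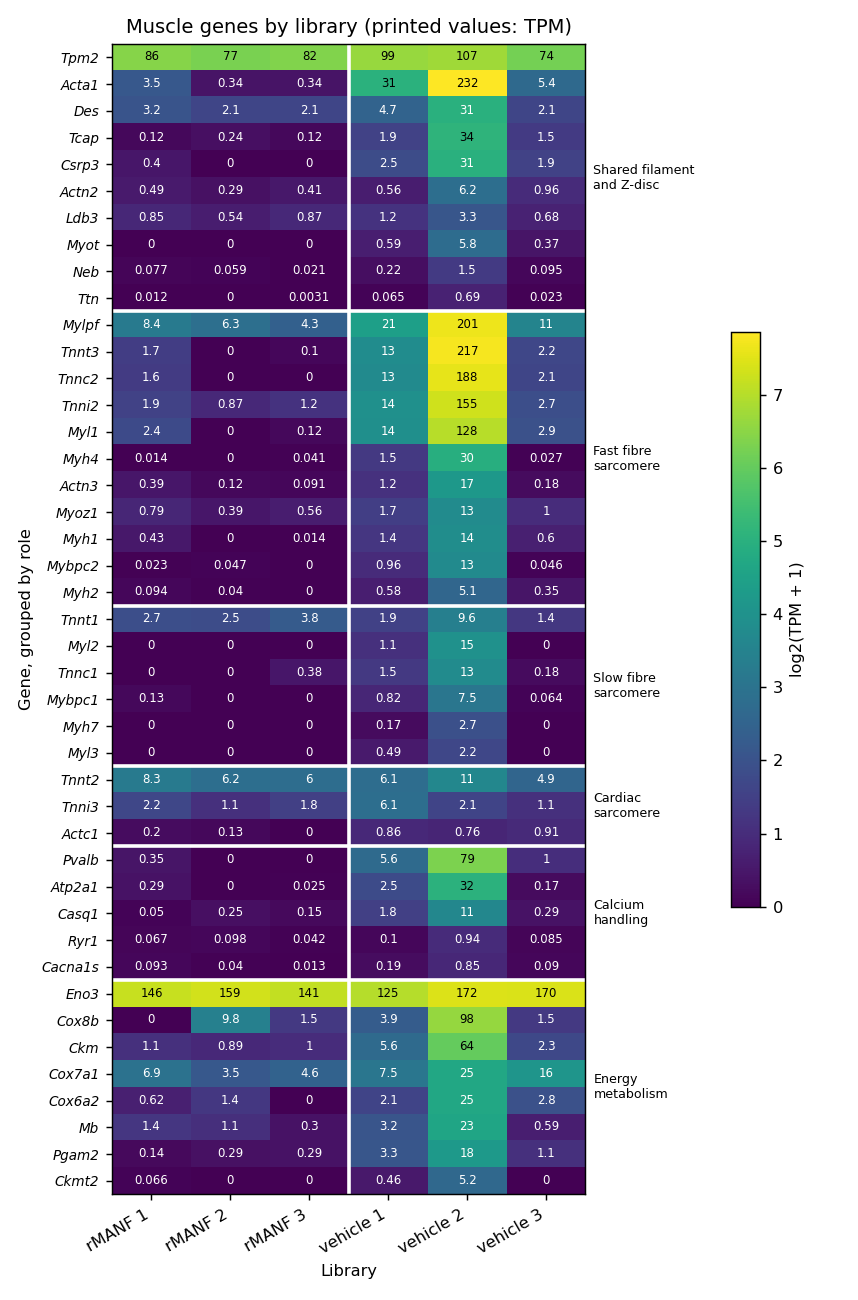
TPM of each of the 43 muscle genes (rows, grouped by role and ordered by mean level) in the 3 rMANF libraries (left) and the 3 vehicle libraries (right), with colour showing log2(TPM + 1) and the printed number the TPM. The column of vehicle replicate 2 is the brightest in nearly every row, while Eno3 and Tpm2 are bright in all 6 libraries.

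A pair of genes made up most of that sum wherever muscle RNA was low. Eno3, the muscle form of the glycolytic enzyme enolase, measured 146, 159 and 141 TPM in rMANF replicates 1, 2 and 3 and 125, 172 and 170 TPM in vehicle replicates 1, 2 and 3. Tpm2, which encodes beta-tropomyosin of the thin filament and is also made by smooth muscle and mesenchymal cells, measured 85.7, 77.1 and 82.3 TPM with rMANF and 98.8, 107 and 73.7 TPM with vehicle. The groups overlapped for both genes. Together they held 82.0% to 88.1% of the sum in the rMANF libraries, and 55.3%, 13.6% and 77.5% in vehicle replicates 1, 2 and 3. Without this pair, the remaining 41 genes had summed levels of 50.9, 38.8 and 30.2 TPM in rMANF replicates 1, 2 and 3, against 181, 1774 and 70.6 TPM in vehicle replicates 1, 2 and 3, so that every rMANF library lay below every vehicle library.

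**Figure D2:**
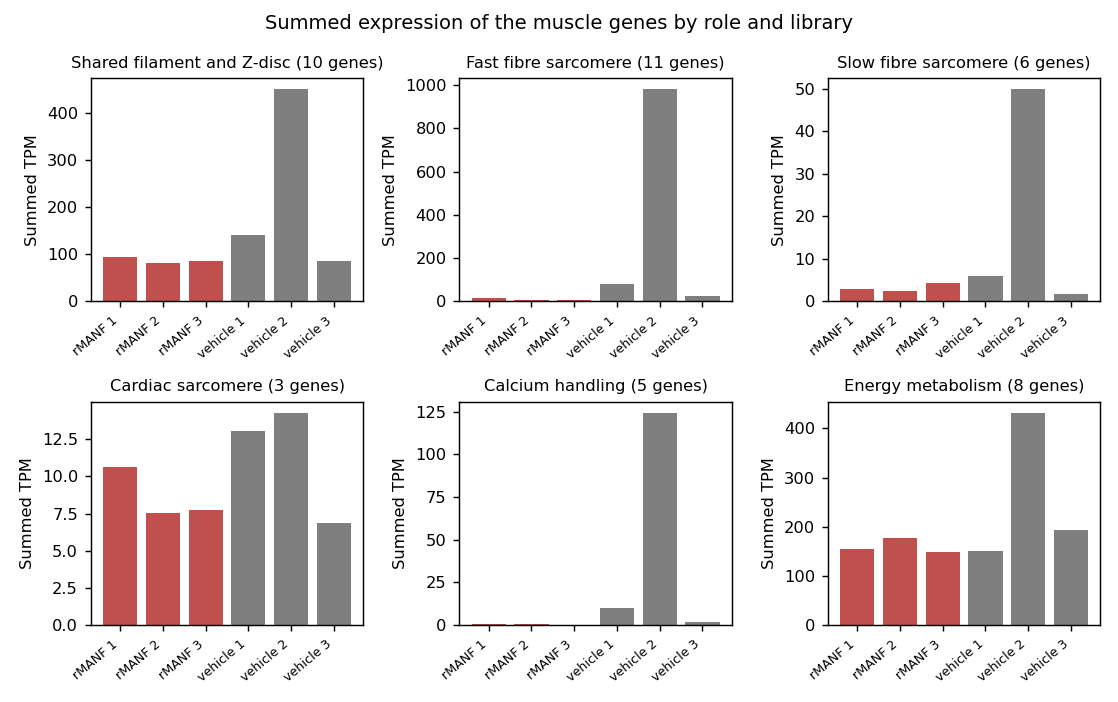
Summed TPM of the muscle genes in 6 role groups (panels, each with its own scale from 0) in the 3 rMANF libraries (red, left) and the 3 vehicle libraries (grey, right). Vehicle replicate 2 is highest in the fast fibre panel, at 981 TPM against at most 82.4 TPM in any other library. In the cardiac panel it is highest by little, at 14.3 TPM against 6.89 to 13.0 TPM in the others.

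The thin filament gene Acta1 (ENSMUSG00000031972.5, chromosome 8, 123891769 to 123894751, GRCm38), skeletal alpha-actin, gave the widest span. It measured 3.46, 0.339 and 0.343 TPM in rMANF replicates 1, 2 and 3 and 31.4, 232 and 5.43 TPM in vehicle replicates 1, 2 and 3. The groups did not overlap, and the vehicle libraries differed from each other by more than the lowest vehicle library differed from the highest rMANF library. The limma difference (rMANF minus vehicle on log2(TPM + 1)) was −4.19 ± 1.15 (SE), which did not pass the threshold of 0.05 (Benjamini-Hochberg adjusted p = 0.123). Without vehicle replicate 2 it was −2.85 ± 0.77 (limma adjusted p = 0.217). Its cardiac counterpart Actc1 stayed under 1 TPM, at 0.198, 0.132 and 0 TPM with rMANF and 0.863, 0.758 and 0.905 TPM with vehicle. Actc1 was therefore not highest in vehicle replicate 2, and its vehicle values lay within a narrow range although Acta1 spanned from 5.43 to 232 TPM in the same libraries.

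Because most of the genes were highest in the same library, the bases just before the start sites of 5 of them are shown. Acta1, the fast myosin gene Myh4, the fast troponin gene Tnnc2 and the creatine kinase gene Ckm were each over 5-fold higher in vehicle replicate 2 than in vehicle replicate 1. Eno3 was also highest in vehicle replicate 2, but only 1.38-fold above vehicle replicate 1. The sequences come from RefSeq on GRCm38.p6 and run 5′ to 3′ on the gene's strand over the 250 bases before its annotated start. Capitals mark matches to the E-box (CANNTG, bound by MyoD family factors), the MCAT element (CATTCC, bound by TEAD factors), the MEF2 and CArG (serum response factor) motifs, each on either strand, and TATAAA or TATATA in the last 50 bases. Acta1 lies on the minus strand at chr8:123894776-123895025, Myh4 on the plus strand at chr11:67237562-67237811, Tnnc2 on the minus strand at chr2:164779735-164779984, Ckm on the plus strand at chr7:19410844-19411093 and Eno3 on the plus strand at chr11:70656926-70657175.
Acta1: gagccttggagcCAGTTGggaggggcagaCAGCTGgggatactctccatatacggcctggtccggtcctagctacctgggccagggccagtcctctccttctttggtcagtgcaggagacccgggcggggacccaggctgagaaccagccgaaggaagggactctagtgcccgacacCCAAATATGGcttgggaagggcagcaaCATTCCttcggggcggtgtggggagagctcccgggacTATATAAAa
Myh4: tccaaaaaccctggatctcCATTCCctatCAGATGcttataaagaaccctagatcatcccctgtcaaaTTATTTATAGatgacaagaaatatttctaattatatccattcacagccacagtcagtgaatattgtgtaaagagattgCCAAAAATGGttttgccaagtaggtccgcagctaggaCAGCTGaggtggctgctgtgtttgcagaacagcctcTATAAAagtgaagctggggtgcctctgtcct
Tnnc2: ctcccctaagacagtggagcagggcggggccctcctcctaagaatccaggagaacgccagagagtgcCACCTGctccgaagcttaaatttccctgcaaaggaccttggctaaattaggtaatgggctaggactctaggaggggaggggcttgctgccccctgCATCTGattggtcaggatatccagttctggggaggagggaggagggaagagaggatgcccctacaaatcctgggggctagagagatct
Ckm: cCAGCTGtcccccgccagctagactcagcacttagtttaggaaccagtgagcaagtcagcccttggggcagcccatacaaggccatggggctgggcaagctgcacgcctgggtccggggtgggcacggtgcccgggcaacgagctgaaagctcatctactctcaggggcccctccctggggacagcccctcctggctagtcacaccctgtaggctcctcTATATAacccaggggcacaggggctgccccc
Eno3: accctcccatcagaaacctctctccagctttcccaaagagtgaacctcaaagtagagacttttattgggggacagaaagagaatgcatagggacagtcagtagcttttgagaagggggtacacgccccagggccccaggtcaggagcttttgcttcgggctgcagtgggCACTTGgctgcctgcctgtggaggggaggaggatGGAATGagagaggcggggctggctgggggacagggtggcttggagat

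Acta1 carried E-boxes at −238 and −221, a CArG box at −73 and an MCAT element at −46, counted from the start site, and its overlapping TATA matches ended at −2. Myh4 carried an MCAT element at −231, E-boxes at −221 and −67, a MEF2 motif at −182, a CArG box at −104 and a TATA match at −31. Tnnc2 had E-boxes at −183 and −88 and none of the other motifs, and Ckm an E-box at −249 and a TATA match at −31. Eno3 had an E-box at −81 and an MCAT match at −47. Neither Tnnc2, Ckm nor Eno3 held a MEF2 or CArG match, so in these windows the motifs did not separate the steeper genes from Eno3. The RefSeq start sites of all the genes shown differ from the ends of their GENCODE spans. For Tnnc2 and Ckm these spans are 164777161 to 164779967 and 19404776 to 19422841. Most of the Tnnc2 window and all of the Ckm window lie inside those spans, so they may not be upstream bases. The windows of Acta1, Myh4 and Eno3 end before their GENCODE starts (123894751, 67238029 and 70657202), so their motif positions depend on the start site used. RefSeq held 43 promoters for 35 of the genes. A MEF2 motif was found in 5 of these 43 promoters (11.6%) and in 2.92% of all 32851 promoters of the table, a CArG box in 6 (14.0%, against 1.47%), an MCAT element in 11 (25.6%, against 12.6%), a TATA match in 8 (18.6%, against 3.67%) and an E-box in 36 (83.7%, against 66.2%). A match describes these letters only and shows no binding.

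The other shared filament and Z-disc genes were uneven to different degrees, with vehicle replicate 2 over vehicle replicate 1 at 17.5-fold for Tcap and 2.66-fold for Ldb3. Tcap, which caps titin at the Z-disc, measured 0.120, 0.240 and 0.122 TPM in rMANF replicates 1, 2 and 3 and 1.92, 33.8 and 1.53 TPM in vehicle replicates 1, 2 and 3. Csrp3, the muscle LIM protein gene, measured 0.397, 0 and 0 TPM with rMANF and 2.52, 30.7 and 1.95 TPM with vehicle. The groups did not overlap for either, and the limma differences of −2.46 ± 0.89 and −2.63 ± 0.81 (SE) did not pass the threshold (adjusted p = 0.182 for Tcap and 0.145 for Csrp3). The myotilin gene Myot was listed at 0 in all 3 rMANF libraries and at 0.590, 5.80 and 0.368 TPM in vehicle replicates 1, 2 and 3. The giant filament genes Ttn and Neb were scarce everywhere, reaching 0.694 and 1.53 TPM in vehicle replicate 2, and both were too low to test. Actn2, which crosslinks actin at the Z-disc, measured 0.291 to 0.494 TPM with rMANF and 0.555 to 6.15 TPM with vehicle. Des, the muscle intermediate filament gene that smooth muscle also expresses, measured 3.15, 2.10 and 2.13 TPM with rMANF and 4.68, 30.8 and 2.10 TPM with vehicle, and Ldb3, another Z-disc gene, 0.538 to 0.874 TPM with rMANF and 0.683 to 3.28 TPM with vehicle. For Des and Ldb3 the groups overlapped at vehicle replicate 3.

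Fast fibre sarcomere genes carried the largest part of the excess in vehicle replicate 2. The 11 genes had summed levels of 17.7, 7.78 and 6.44 TPM in rMANF replicates 1, 2 and 3, against 82.4, 981 and 22.8 TPM in vehicle replicates 1, 2 and 3. Mylpf, the fast regulatory light chain, was the only one of them above 4 TPM in every library, at 8.38, 6.31 and 4.28 TPM with rMANF and 20.9, 201 and 10.7 TPM with vehicle. Its groups did not overlap, and its limma log2 difference of −2.39 ± 0.91 (SE) did not pass the threshold (adjusted p = 0.197). The essential light chain gene Myl1 measured 2.42, 0 and 0.123 TPM with rMANF and 13.9, 128 and 2.85 TPM with vehicle, again with no overlap.

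The fast troponin genes, which make calcium start contraction in fast fibres, followed the same order of libraries. Tnnt3 (troponin T) measured 1.71, 0 and 0.102 TPM with rMANF and 13.2, 217 and 2.17 TPM with vehicle. Tnni2 (troponin I) measured 1.91, 0.869 and 1.24 TPM with rMANF and 14.4, 155 and 2.73 TPM with vehicle. Tnnc2 (troponin C) measured 1.56, 0 and 0 TPM with rMANF and 12.7, 188 and 2.12 TPM with vehicle. None of the 3 overlapped between the groups. Their limma differences were −3.89 ± 1.32, −3.18 ± 1.13 and −3.87 ± 1.28 (SE; adjusted p = 0.165, 0.178 and 0.159), none past the threshold. Tnnc2 (chromosome 2, 164777161 to 164779967) overlaps Ube2c on the other strand, and the library kit does not mark strand. Ube2c, a gene of dividing cells, measured 426 and 479 TPM in rMANF replicates 2 and 3, where Tnnc2 was listed at 0.

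Myosin heavy chain genes mark the fast fibre subtypes: Myh4 the fastest (IIb), Myh1 the IIx and Myh2 the IIa fibres, with Myh7 in slow fibres. In vehicle replicate 2 they measured 29.7 TPM (Myh4), 13.6 TPM (Myh1), 5.11 TPM (Myh2) and 2.75 TPM (Myh7), or 58.1%, 26.5%, 9.98% and 5.37% of their sum. In vehicle replicate 1 the sum was only 3.57 TPM, against 51.1 TPM in vehicle replicate 2, and the shares were 40.9%, 38.0%, 16.3% and 4.82%. In vehicle replicate 3 (0.984 TPM in all) and in the rMANF libraries (0.0404 to 0.539 TPM) the sums were too low for shares to be read. Myh2, Myh1 and Myh4 follow each other on chromosome 11 between 67171027 and 67260446 and have very similar sequences, so the split of reads between them is uncertain. Other genes of the fast sarcomere behaved likewise: Actn3, an actinin of fast fibres, reached 17.2 TPM in vehicle replicate 2, the Z-disc gene Myoz1 12.8 TPM and the myosin-binding gene Mybpc2 12.7 TPM, against at most 0.785 TPM for any of the 3 in an rMANF library and at most 1.73 TPM in the other vehicle libraries.

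Slow fibre genes were lower and, like the fast fibre genes, were all highest in vehicle replicate 2. Unlike most fast fibre genes, no slow fibre gene had every rMANF value below every vehicle value. The summed level of the slow fibre genes was lower in vehicle replicate 3 than in any rMANF library, and Tnnt1 made up most of it there. Myl2, the slow and ventricular regulatory light chain, was listed at 0 in all rMANF libraries and measured 1.15, 14.9 and 0 TPM in vehicle replicates 1, 2 and 3. Tnnc1, the slow and cardiac troponin C, measured 0, 0 and 0.378 TPM with rMANF and 1.48, 13.0 and 0.183 TPM with vehicle, so the groups overlapped. Tnnc1 overlaps Nisch (45.7 to 51.6 TPM in the 6 libraries) on the other strand. Myl3 and Myh7 were listed at 0 in every rMANF library and in vehicle replicate 3, and Mybpc1, the slow myosin-binding protein, reached 7.45 TPM in vehicle replicate 2. Tnnt1, slow troponin T, measured 2.72, 2.51 and 3.83 TPM with rMANF and 1.89, 9.60 and 1.44 TPM with vehicle. It was higher in every rMANF library than in vehicle replicates 1 and 3, and its limma difference of −0.08 ± 0.51 (SE; adjusted p = 0.950) became 0.59 ± 0.21 without vehicle replicate 2 (adjusted p = 0.278).

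The 3 genes of the cardiac sarcomere did not share the large excess of vehicle replicate 2. Its ratio to vehicle replicate 1 was 1.89-fold for Tnnt2, 0.338-fold for Tnni3 and 0.878-fold for Actc1. For Actc1, given above, every rMANF value lay below every vehicle value, all under 1 TPM. Tnnt2, cardiac troponin T, measured 8.30, 6.23 and 5.95 TPM with rMANF and 6.06, 11.5 and 4.86 TPM with vehicle. Tnni3, cardiac troponin I, measured 2.16, 1.15 and 1.81 TPM with rMANF and 6.11, 2.07 and 1.12 TPM with vehicle, and was highest in vehicle replicate 1. Both overlapped between the groups, with limma differences of −0.05 ± 0.27 and −0.43 ± 0.41 (SE; adjusted p = 0.946 and 0.606). The difference of Tnnt2 changed sign without vehicle replicate 2 (0.27), and that of Tnni3 without vehicle replicate 1 (0.07). Tnni3 overlaps Dnaaf3 on the same strand, so the split of reads between them is uncertain. Dnaaf3 measured 1.84 to 3.06 TPM with rMANF and 2.04 to 2.84 TPM with vehicle.

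The troponin families therefore had different make-ups across the libraries. Of the summed TPM of the 3 troponin T genes, fast Tnnt3 held 13.4%, 0% and 1.03% in rMANF replicates 1, 2 and 3 and 62.4%, 91.2% and 25.6% in vehicle replicates 1, 2 and 3. Cardiac Tnnt2 held 60.2% to 71.2% in the rMANF libraries and 28.6%, 4.81% and 57.4% in the vehicle libraries. Among the troponin I genes, fast Tnni2 held 27.6% to 36.7% in the rMANF libraries and 67.1%, 93.4% and 53.1% in the vehicle libraries. The groups did not overlap for the fast share of either family. These shares describe ratios within a library and do not depend on its scaling.

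**Figure D3:**
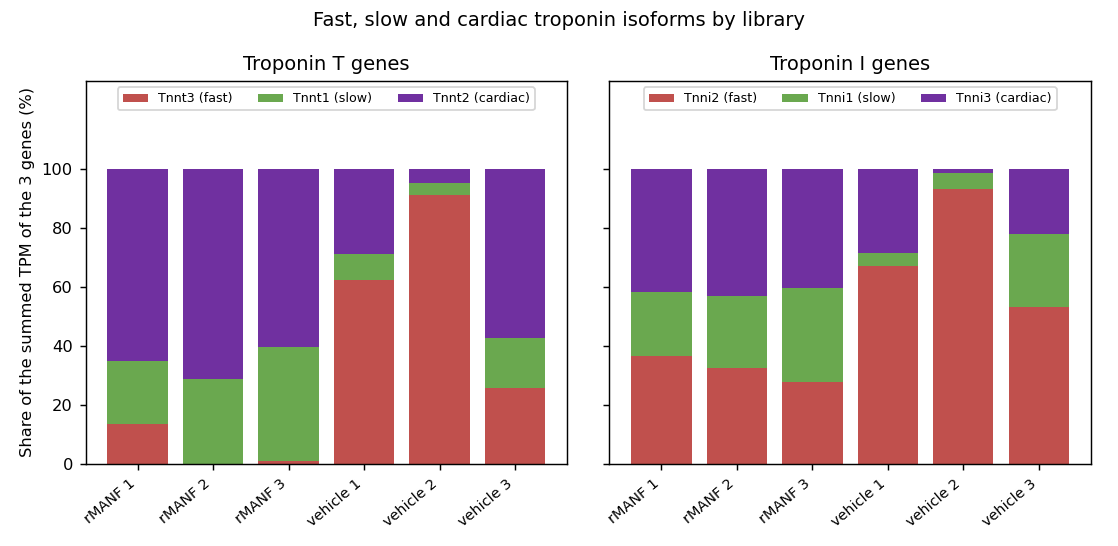
Share (%) of the fast, slow and cardiac genes in the summed TPM of the troponin T family (left panel) and the troponin I family (right panel), in the 3 rMANF libraries (left bars) and the 3 vehicle libraries (right bars). The fast share is largest in vehicle replicate 2, at 91.2% for troponin T and 93.4% for troponin I, and below 37% in every rMANF library.

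Calcium handling genes were scarce outside vehicle replicates 1 and 2. The 5 genes had summed levels of 0.854, 0.388 and 0.232 TPM in rMANF replicates 1, 2 and 3, against 10.2, 124 and 1.67 TPM in vehicle replicates 1, 2 and 3. Pvalb, parvalbumin, a calcium buffer of fast fibres, measured 0.351, 0 and 0 TPM with rMANF and 5.63, 78.7 and 1.03 TPM with vehicle. Its limma difference was −3.21 ± 1.13 (SE; adjusted p = 0.173), and −1.73 ± 0.50 without vehicle replicate 2 (adjusted p = 0.226). Atp2a1, the calcium pump of the fast fibre sarcoplasmic reticulum, measured 0.293, 0 and 0.0247 TPM with rMANF and 2.45, 32.4 and 0.166 TPM with vehicle, where vehicle replicate 3 lay below rMANF replicate 1. It overlaps Rabep2, which had 8.77 to 9.62 TPM with rMANF and 8.49 to 14.3 TPM with vehicle. Casq1, the calcium store protein calsequestrin, measured 0.0502 to 0.251 TPM with rMANF and 1.81, 11.4 and 0.294 TPM with vehicle, with no overlap. The release channel gene Ryr1 and the voltage sensor gene Cacna1s reached 0.936 and 0.847 TPM in vehicle replicate 2 and were too low to test.

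Among the energy genes, muscle creatine kinase and most muscle forms of glycolytic and respiratory enzymes followed the sarcomere. Eno3 did not, and Cox7a1 was only 3.37-fold higher in vehicle replicate 2 than in vehicle replicate 1. Both Cox7a1 and Cox6a2 were higher in vehicle replicate 3 than in vehicle replicate 1. Ckm, which regenerates ATP from phosphocreatine, measured 1.11, 0.888 and 0.997 TPM with rMANF and 5.58, 63.8 and 2.26 TPM with vehicle, with no overlap (limma difference −2.48 ± 0.94, SE; adjusted p = 0.194). Its mitochondrial partner Ckmt2 reached 5.25 TPM in vehicle replicate 2 and at most 0.460 TPM elsewhere. Pgam2, the muscle phosphoglycerate mutase, measured 0.144, 0.289 and 0.294 TPM with rMANF and 3.32, 18.2 and 1.13 TPM with vehicle, a difference of −2.18 ± 0.69 with no overlap (limma adjusted p = 0.148). Mb, myoglobin, which stores oxygen, measured 1.39, 1.10 and 0.303 TPM with rMANF and 3.19, 23.5 and 0.585 TPM with vehicle, and its groups overlapped. Mb shares its locus with the antisense gene Gm49540, which had 16.4 TPM in vehicle replicate 2 and at most 2.54 TPM elsewhere. As the kit does not mark strand, reads from bases that these 2 genes share cannot be assigned by strand.

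Of the tissue-specific subunits of cytochrome c oxidase, Cox7a1 had the smallest p among the 35 genes tested. It measured 6.88, 3.51 and 4.55 TPM with rMANF and 7.54, 25.4 and 16.1 TPM with vehicle. The groups did not overlap, though vehicle replicate 1 and rMANF replicate 1 lay close together. The limma difference was −1.43 ± 0.39 (SE; adjusted p = 0.122), and −1.05 ± 0.34 without vehicle replicate 2 (adjusted p = 0.248). With library weights, in which vehicle replicate 3 counted most, the difference of −1.52 passed the threshold (limma adjusted p = 0.0288). Cox6a2 measured 0.616, 1.44 and 0 TPM with rMANF and 2.05, 25.0 and 2.84 TPM with vehicle, with no overlap. Cox8b, used by striated muscle and brown fat, measured 0, 9.84 and 1.48 TPM with rMANF and 3.90, 98.3 and 1.48 TPM with vehicle. It had the largest ratio of vehicle replicate 2 to vehicle replicate 1 among the genes, 25.2-fold, and its groups overlapped. The 7 other brown fat markers with rows summed to 1.15 to 1.75 TPM in the rMANF libraries and 1.47 to 2.02 TPM in the vehicle libraries. Ucp1 was not analysed here.

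Ratios to the widely expressed gene of the same family, which do not depend on library scaling, were compared for 14 of 15 listed pairs with rows. All 14 ratios were highest in vehicle replicate 2, and 8 did not overlap between the groups, with every rMANF value below every vehicle value. The share over other gene pairs was not computed, so this count cannot be judged. The ratios reuse the muscle gene values given above and are no separate evidence. Per 1000 TPM of beta-actin (Actb), Acta1 had 1.32, 0.149 and 0.161 TPM in rMANF replicates 1, 2 and 3 and 13.5, 73.0 and 2.01 TPM in vehicle replicates 1, 2 and 3. Per 1000 TPM of Ckb, the brain-type creatine kinase, Ckm had 38.0, 32.6 and 54.6 TPM with rMANF and 219, 1509 and 63.1 TPM with vehicle, so muscle creatine kinase exceeded the brain type in vehicle replicate 2 and in no other library. Per 1000 TPM of Pgam1, Pgam2 had 0.767, 1.58 and 1.97 TPM with rMANF and 29.5, 141 and 7.18 TPM with vehicle. Eno3 differed little by this measure too, at 97.0, 103 and 92.5 TPM per 1000 TPM of Eno1 with rMANF and 93.7, 111 and 106 TPM with vehicle.

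Within the vehicle group the genes differed in concert. The median ratio of vehicle replicate 2 to vehicle replicate 1 was 9.18-fold over the 43 genes, with quartiles of 5.88-fold and 12.6-fold, whereas the median over the 12930 genes with at least 1 TPM in vehicle replicate 1 was 0.880-fold. Of those 12930 genes, 40 were at least 5-fold higher in vehicle replicate 2, and 24 of the 40 were among the 43. That count is a description only, because the 43 were chosen with earlier results of these data known. The ratio was at least 5-fold for 34 of the 43, and below 2-fold for the 5 genes Eno3, Tpm2, Tnnt2, Tnni3 and Actc1. For 37 of the 43, the order was vehicle replicate 2, then 1, then 3. Across the 41 genes other than Eno3 and Tpm2, log2(TPM + 1) in vehicle replicate 1 and vehicle replicate 2 had a Pearson r of 0.856, a description across genes of 2 libraries. Over all 12865 tested genes the same pair had an r of 0.970. Other pairs of libraries ran from 0.214 to 0.872 over the 41 genes, so 0.856 is not particular to this pair.

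**Figure D4:**
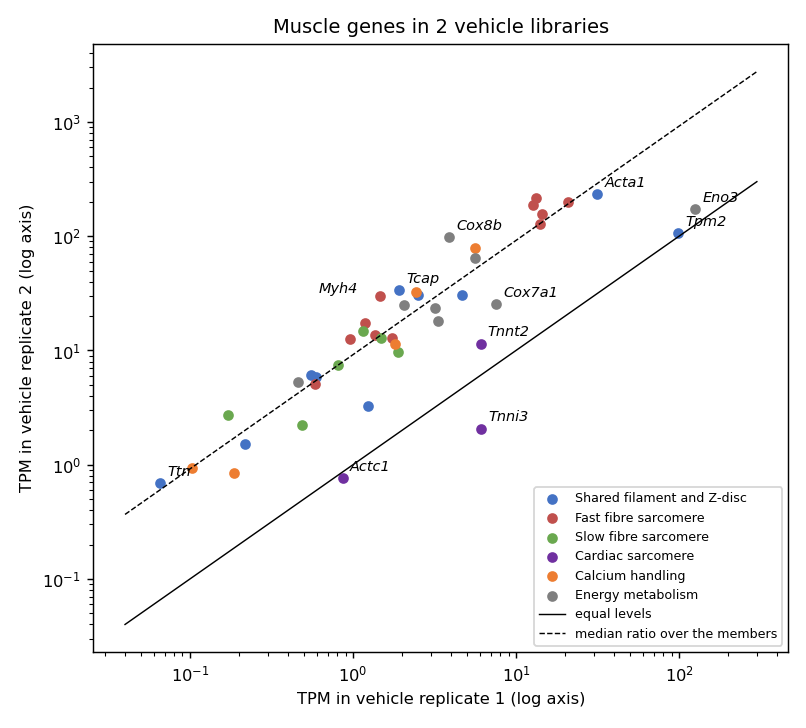
TPM of each muscle gene in vehicle replicate 1 (x axis, log scale) and vehicle replicate 2 (y axis, log scale), coloured by role. Most genes lie along the dashed line, the median ratio of 9.18, while Eno3, Tpm2, Tnnt2, Tnni3 and Actc1 lie near or below the solid line of equal levels.

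Whether rMANF altered these genes was asked over all 43 first. The mean over the rMANF libraries lay below the mean over the vehicle libraries for all 43 genes, against 48.5% of all genes in the table. When vehicle replicate 2 was left out this held for 39 genes (50.4% of all genes), and against vehicle replicate 3 alone for 30 (39.9%). The groups were fully separated, with rMANF lower, for 22 of the 43, as were 7.01% of all genes in the table. They were separated with rMANF higher for 0 of the 43, against 12% of all genes. The values of vehicle replicate 2 exceeded all rMANF values for 42 genes, those of vehicle replicate 3 for 23. The shares of all genes in the table were not computed for these counts, which cannot be judged without them. Over the 12758 genes tested without vehicle replicates 1 and 2, vehicle replicate 3 exceeded all rMANF values for 22.2%. Within the rMANF group, replicate 1 was the highest for 31 genes.

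No muscle gene passed the test. Of the 43 genes, 35 reached the mean of 1 TPM needed for testing, and 24 of the 35 had an rMANF mean below 1 TPM, so they were tested only because of their vehicle level and had to lie lower. Limma called 0 of the 35 and 0 of all 12865 tested genes (0%) at an adjusted p of 0.05. At an unadjusted p under 0.05, 14 of the 35 lay lower, as did 6.63% of all tested genes. With no overlap, 19 of the 35 lay lower, against 9.02% of all tested genes. The median log2 difference was −1.63 over the 35 genes and 0.04 over all tested genes, and the lowest adjusted p among the 35 was 0.122. Without vehicle replicate 2 only 19 of the genes reached 1 TPM. Of those 19, 16 lay lower, 11 of them with no overlap against 14% of all genes tested in that fit. The median difference was −1.11, and the lowest limma adjusted p was 0.215. Among the 19, Ckm, Cox6a2, Mb, Myl1, Pgam2, Pvalb, Tnnc2 and Tnnt3 had an rMANF mean below 1 TPM. These genes too were tested only because of their vehicle level and had to lie lower.

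**Figure D5:**
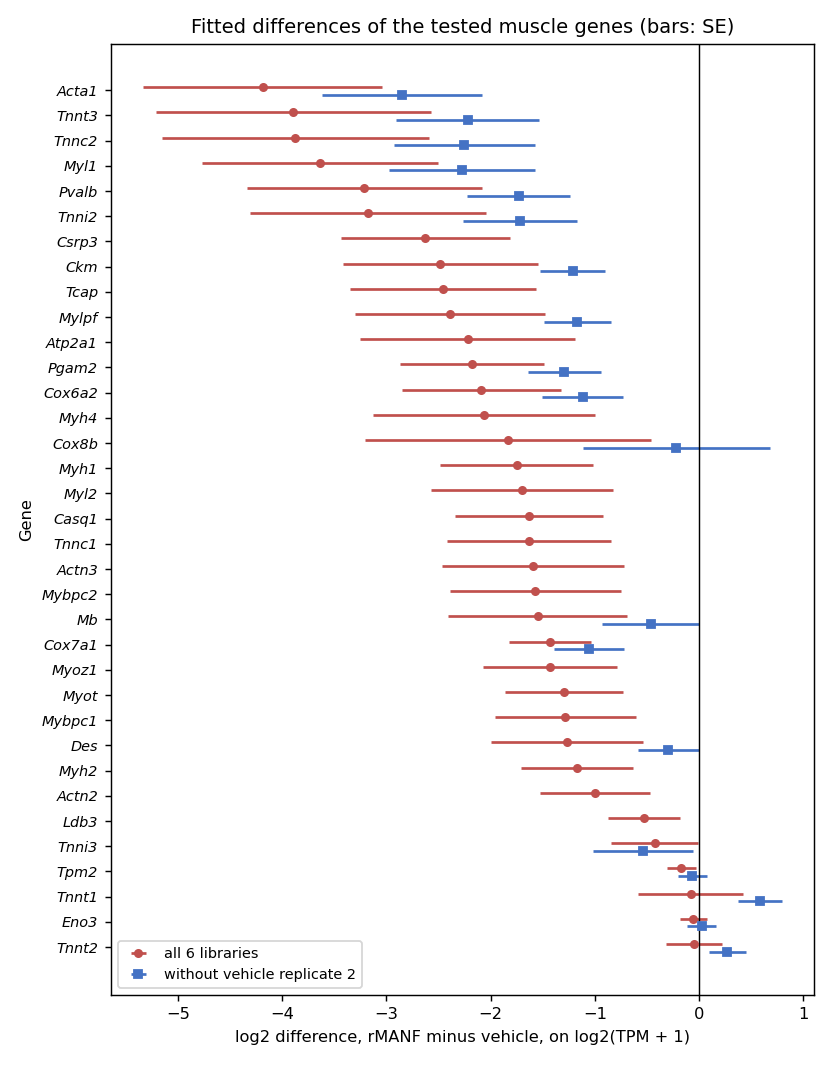
Fitted log2 differences (rMANF minus vehicle, on log2(TPM + 1)) of the 35 tested muscle genes with all 6 libraries (red circles) and of the 19 still tested without vehicle replicate 2 (blue squares), with bars of 1 SE. Without that library the difference of Acta1 is −2.85 in place of −4.19, and Tnnt1, Tnnt2 and Eno3 lie above 0.

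Other genes of muscle were read from a separate list of 85, of which 82 had rows. Its 8 most abundant members were Aldoa, Tpm3, Tpm1, Slc25a4, Atp2a2, Cryab, Flnc and Chrnb1. Aldoa measured 1009 to 1043 TPM with rMANF and 914 to 1221 TPM with vehicle, and Tpm3 373 to 427 TPM and 395 to 494 TPM. Flnc lay higher in every rMANF library, at 30.2 to 33.3 TPM against 19.9 to 25.7 TPM with vehicle. Its limma difference of 0.43 ± 0.11 (SE) did not pass the threshold (adjusted p = 0.116). Limma called 0 of the 37 tested members, with 27 lower and 10 higher and a median difference of −0.21. With no overlap, 4 of the 37 lay lower and 2 higher, against 9.02% and 18.9% of all tested genes. Of the 27 members reaching 5 TPM in a library, 15 were highest in vehicle replicate 2, and of the 43 genes described above 34 of 35 were, against 9.98% of the 10524 genes of the table reaching that level. Of all 82, 60 were highest in vehicle replicate 2. The members named next were chosen after their values were seen, the first pair for being highest there. Pygm, muscle glycogen phosphorylase, measured 0.241, 0.181 and 0.183 TPM with rMANF and 1.03, 10.7 and 0.352 TPM with vehicle, and Klhl41, which stabilises sarcomere proteins, 0.0696, 0.0348 and 0.106 TPM with rMANF and 1.01, 7.63 and 0.237 TPM with vehicle. Others did not go that way: Trim54 measured 10.6 to 17.3 TPM with rMANF and 8.66, 14.8 and 18.9 TPM with vehicle, and Stac3, of the calcium release machinery, 7.34 to 9.18 TPM with rMANF and 5.46, 7.05 and 9.95 TPM with vehicle, both highest in vehicle replicate 3. The embryonic and perinatal myosin genes Myh3 and Myh8 stayed at or below 0.155 TPM in all 6 libraries.

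Of 15 listed regulators of muscle identity 12 had rows, and the myogenic factor genes Myf6, Myod1, Myog and Myf5 were scarce. Limma called 0 of the 4 tested regulators, with 1 lower and 3 higher and a median log2 difference of 0.24. Myf6, a myogenic factor of mature fibres, was listed at 0 in all rMANF libraries and measured 0.324, 1.54 and 0 TPM in vehicle replicates 1, 2 and 3. Myod1, Myog and Myf5 were listed at 0 in all rMANF libraries as well, and reached 0.332, 0.806 and 0.0415 TPM in vehicle replicate 2. The widely expressed factors Mef2d (66.2, 66.8 and 66.2 TPM with rMANF, 51.1, 48.9 and 53.5 TPM with vehicle) and Mef2a (32.4 to 36.9 TPM with rMANF, 26.6 to 41.4 TPM with vehicle) were not highest in vehicle replicate 2. Mef2d lay higher in every rMANF library by 0.37 ± 0.08 on the log2 scale (SE; limma adjusted p = 0.0933). So did Tead4, a TEAD factor gene, at 29.7, 31.6 and 30.4 TPM with rMANF and 21.0, 21.9 and 26.2 TPM with vehicle. Its difference was 0.40 ± 0.10 (SE; limma adjusted p = 0.116). Cdh15, too low to test, measured 0.499, 0.420 and 0.691 TPM with rMANF and 0.0528, 0.300 and 0.0768 TPM with vehicle. Mef2c, the family member of muscle and several other cell types, lay lower in every rMANF library, at 1.48, 1.71 and 1.55 TPM with rMANF and 2.70, 3.00 and 2.58 TPM with vehicle, a difference of −0.54 ± 0.16 (SE; limma adjusted p = 0.132).

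Genes with the pattern most like that of the muscle genes were sought among those reaching 5 TPM in a library, by how far vehicle replicate 2 exceeded the next highest of the 6 libraries. Predicted gene models were left out. Of the 20 genes with the largest excess, 17 were among the 43, led by Tnnt3, Tnnc2, Myh4, Pvalb and Tcap. As the 43 were chosen with earlier results of these data known, their place in this ranking is a description and no separate evidence. The other 3 were Apobec2, which is expressed in striated muscle (9.86 TPM in vehicle replicate 2 and at most 0.487 TPM elsewhere), and the antigen receptor variable segments Igkv6-13 (8.67 TPM, and listed at 0 elsewhere) and Trbv14 (33.3 TPM, and at most 3.85 TPM elsewhere). An excess of at least 1 log2 unit was found for 76 genes, 30 of them among the 43.

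Markers of other cell types were read beside these values. T and NK cell markers (10 of 10 with rows, led by Nkg7 and Gzmb) had summed levels of 33.0, 37.9 and 19.8 TPM in rMANF replicates 1, 2 and 3, against 60.3, 108 and 42.8 TPM in vehicle replicates 1, 2 and 3, and 9 of the 10 were highest in vehicle replicate 2. Macrophage markers (10 of 10, led by Lyz2 and C1qa) summed to 1885, 1609 and 1328 TPM with rMANF and to 2474, 2668 and 2573 TPM with vehicle. Both therefore lay lower in the rMANF libraries, as the muscle genes did, but neither spread over the vehicle libraries as widely. White fat markers (12 of 12, led by Fabp4 and Cfd) summed to 243, 373 and 118 TPM with rMANF and to 277, 231 and 210 TPM with vehicle. Smooth muscle markers other than Des and Tpm2 (12 of 12, led by Tpm1 and Cald1) summed to 618, 623 and 624 TPM with rMANF and to 666, 557 and 550 TPM with vehicle. Keratinocyte markers (11 of 12, led by Sbsn) summed to 26.6, 21.0 and 23.4 TPM with rMANF and to 13.0, 17.1 and 21.5 TPM with vehicle. The cardiomyocyte markers outside the 43 (13 with rows) summed to 65.4, 58.9 and 54.6 TPM with rMANF and to 64.0, 62.6 and 64.0 TPM with vehicle. Nppb made up most of the cardiomyocyte sum, and without it the 12 others summed to 11.3, 9.16 and 8.07 TPM with rMANF and to 6.64, 15.5 and 15.2 TPM with vehicle, highest in vehicle replicate 2. The white fat, smooth muscle and keratinocyte sums were not highest in that library. The part that any of these cell types had in the differences between the groups was not tested.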

How the data were processed

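RNA sequencing values of 6 libraries were used, 3 labelled rMANF and 3 labelled vehicle, grouped by the sample titles. The authors deposited 1 table of log2 TPM per gene and library. The submitters' processing notes name Salmon 0.14.1, HTSeq 0.11.0, fastp, cutadapt and the build mm10 without their roles, and no annotation or filter is given in the sources used here. Raising 2 to each value gave TPM, with −9 read as 0 TPM. No sample outside the 6 had values in it (0 columns). Per the labels' protocols the kit was Nextera XT, which does not mark strand. TPM keeps no read number, so precision rests on the spread between samples. The labels call the samples biological replicates, read here as separate mice.

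The 43 genes and all marker lists were chosen with earlier results of these data known. Genes were named by rule: all 43, the 8 most abundant of the other muscle list, the 2 most abundant of each cell type list, and the 20 with the largest excess in the library where most of the 43 were highest. Regulators other than Mef2d and Mef2a, the near-absent heart markers, and Pygm, Klhl41, Trim54, Stac3, Myh3 and Myh8 were named outside that rule, after their values were seen. Differences were fitted on log2(TPM + 1) with limma 3.58.1 in R 4.3.3 (no covariates, variance trend, two-sided) over the 12865 genes whose 6 libraries averaged 1 TPM or more, with Benjamini-Hochberg adjustment at 0.05. For genes listed at 0 in some library these differences depend on the pseudocount of 1. An exact permutation test of 3 against 3 libraries cannot go below p = 0.1, so none is given. The fit was tested on simulated data in which every gene had the same spread. That test does not cover genes with an outlying library, as most of the muscle genes have. Gene positions came from GENCODE M21 (GRCm38) and promoters from RefSeq (GRCm38.p6). Alternatives were a pseudocount of 0.1 or 5 TPM, a filter at 5 TPM or none, median-of-ratios and quantile scaling, other variance models, library weights, the replicate block and each library left out. Leaving out vehicle replicates 1 and 2 together was added after seeing the data.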

Additional observations from a re-analysis of the deposited data

How the results depend on the processing

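Every alternative kept the median difference of the tested muscle genes below 0 (−1.63 with all 6 libraries). The cause of each shift was not tested, except that a smaller pseudocount stretches low values and fewer libraries or a stricter filter leave fewer genes to test. With a pseudocount of 0.1 TPM the median was −3.12. A filter at 5 TPM left 20 of the genes, 12 lower with no overlap (8.52% of all genes at that filter), against 19 at 1 TPM (9.02%). Over all genes, limma called 737 with library weights, 3 with the replicate block, 0 to 18 when 1 library was left out and 6 without vehicle replicates 1 and 2 together, where the lone vehicle library is assumed to vary like the rMANF libraries, which alone give the spread. Of those 0 to 18, 2 were called without rMANF replicate 1 and 18 without vehicle replicate 1. Limma called 1 muscle gene, Cox7a1, with library weights, and 0 under the 16 other alternatives, whose lowest adjusted p was 0.0627 to 0.315. Leaving out 1 library gave 11 to 31 muscle genes with no overlap and lower (11 without vehicle replicate 2 and 31 without vehicle replicate 3; 10.6% to 15.0% of all genes), 0 to 1 higher (20.7% to 32.2% of all genes), and a log2 ratio of the mean sums of −2.19 to −0.41 (−1.77 with all 6, −0.41 without vehicle replicate 2). Without vehicle replicates 1 and 2 together, 8 of 14 tested genes lay lower, 8 of them with no overlap (22.2% of all genes), 4 lay higher with no overlap (37.8% of all genes), and the ratio was −0.22. The sign turned with library weights for Tnni3 (0.16), Tnnt1 (0.39), Tnnt2 (0.26) and Tpm2 (0.050), without rMANF replicate 2 for Tnnt1 (0.0097) and Tnnt2 (0.0044), without rMANF replicate 3 for Tnnt2 (0.033), without vehicle replicate 1 for Tnni3 (0.066), without vehicle replicate 2 for Eno3 (0.024), Tnnt1 (0.59) and Tnnt2 (0.27), without vehicle replicate 3 for Eno3 (0.014), and without vehicle replicates 1 and 2 together for Cox8b (0.27), Des (0.14), Tnni3 (0.33), Tnnt1 (0.71), Tnnt2 (0.41) and Tpm2 (0.15). With 1 library left out, the difference ran between −0.21 and 0.024 for Eno3, −0.81 and 0.066 for Tnni3, −0.47 and 0.59 for Tnnt1, and −0.27 and 0.27 for Tnnt2. Replicate numbers did not pair the libraries: deviations of same-numbered libraries correlated at −0.07, 0.03 and 0.05, and the replicate block gave an unadjusted p under 0.05 for 27 muscle genes (14 without it) and for 2121 of all 12865 genes (2642 without it). Since depth is unknown, the precision of values near 0 TPM is unknown too.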
